A study of Mus musculus with 12 samples.

Results

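The 8 kidneys described here are the mouse kidneys whose titles mark them as ischemic, out of 12 kidneys sequenced in the series. All of them came from male C57BL/6J mice and are labelled with 20 min of renal ischemia by clamping of the renal pedicle and collection 24 h later. The other 4 are kidneys labelled as controls, which the study took at nephrectomy without ischemia, although their labels carry the same clamping protocol. In the titles, 4 of the ischemic kidneys belong to an anaesthetised set and 4 to a conscious set, and the group field of the labels gives each set the opposite state, so the 8 kidneys were taken as a single group and numbered 1 to 8. Kidneys 1 to 4 are the set titled as anaesthetised and kidneys 5 to 8 the set titled as conscious, and no direction is given to anaesthesia. The labels do not say whether kidneys of one set shared a day of surgery or a litter, so p-values measure the spread between these kidneys only.

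The kidney tubule reabsorbs filtered solutes in consecutive segments. The proximal tubule takes back glucose, phosphate, amino acids and organic anions with apical and basolateral carriers, runs gluconeogenesis and depends on mitochondrial oxidation, while the thick ascending limb, the distal convoluted tubule and the collecting duct adjust salt, calcium and water. After ischemia the proximal cells lose transporter and metabolic transcripts and switch on genes of the injured epithelium, such as Havcr1, which encodes kidney injury molecule 1, and Lcn2, which encodes the iron carrier NGAL. RNA was taken from kidney tissue in bulk, and fewer cells of a type and less RNA per cell cannot be told apart in these values.

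The libraries held 15367342 to 44793350 counts in the 8 ischemic kidneys and 20364386 to 39155807 in the 4 controls. Values are CPM, the counts of a gene relative to the TMM-scaled library total, and spread is the SD of log2 CPM over the 8 kidneys. Of 11664 genes kept by the filter on counts, 6216 had a mean of 10 or more CPM over the ischemic kidneys, and these 6216 genes were ranked by spread. Kidney 8 stood apart from the other 7. It had the smallest library, its correlation with the others over these genes was the lowest (Pearson r across genes between 0.895 for the least alike pair of kidneys and 0.968 for the most alike, and no lower than 0.937 among kidneys 1 to 7), and it alone took a score of 46.8 on the first principal component, where the others lay between -16.6 and 7.29. That component held 32.8% of the variance, and the first component of kidneys 1 to 7 alone held 26.7%. Kidney 8 was also at a level 4 or more times below every other ischemic kidney for 30 genes, against 0 to 5 genes for each of kidneys 1 to 7, and no ischemic kidney lay that far above all the others for any gene. The main results that rest on kidney 8 are given with and without it. With all libraries thinned to the total of the smallest, which was kidney 8, the first component held 32.1% of the variance and 97 of the 100 genes of largest SD were again among the top 100.

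Spread fell with expression level. The median SD was 0.56 for genes at 10 to 20 CPM, 0.39 at 20 to 50 CPM, 0.29 at 50 to 100 CPM, 0.22 at 100 to 300 CPM and 0.17 at 300 or more CPM. Counting error alone would give a median SD of 0.08 in the lowest of these bins. In the 4 controls the corresponding medians ran from 0.41 to 0.13. The bins were set by the level in the ischemic kidneys, so a gene could lie at another level in controls. Acsm3, for example, had means of 12.5 CPM in the ischemic kidneys and 455 CPM in controls. The 8 kidneys also pool both titled sets, and the medians were not corrected for 8 kidneys against 4. Over all 6216 genes the median SD was 0.33 in the ischemic kidneys, 0.30 without kidney 8 and 0.24 in the controls. A gene by gene test of spread (limma on absolute deviations, two-sided, Benjamini-Hochberg adjustment over the 6216 genes) found 0 genes (0%) with larger spread after ischemia and 4 (0.0644%) with smaller spread. At an unadjusted p under 0.05 there were 347 genes with larger and 213 with smaller spread, and with 8 kidneys against 4 a count of 0 does not show that the spread was equal. The 4 genes of smaller spread, named after their values were seen, were Atf3, a stress transcription factor, Dok4, Nbl1 and Nrcam. Genes entered this test by their level in the ischemic kidneys only, and in controls Atf3, Nbl1 and Nrcam lay at 0 to 2.54, 0 to 6.74 and 0 to 1.36 CPM.

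**Figure D1:**
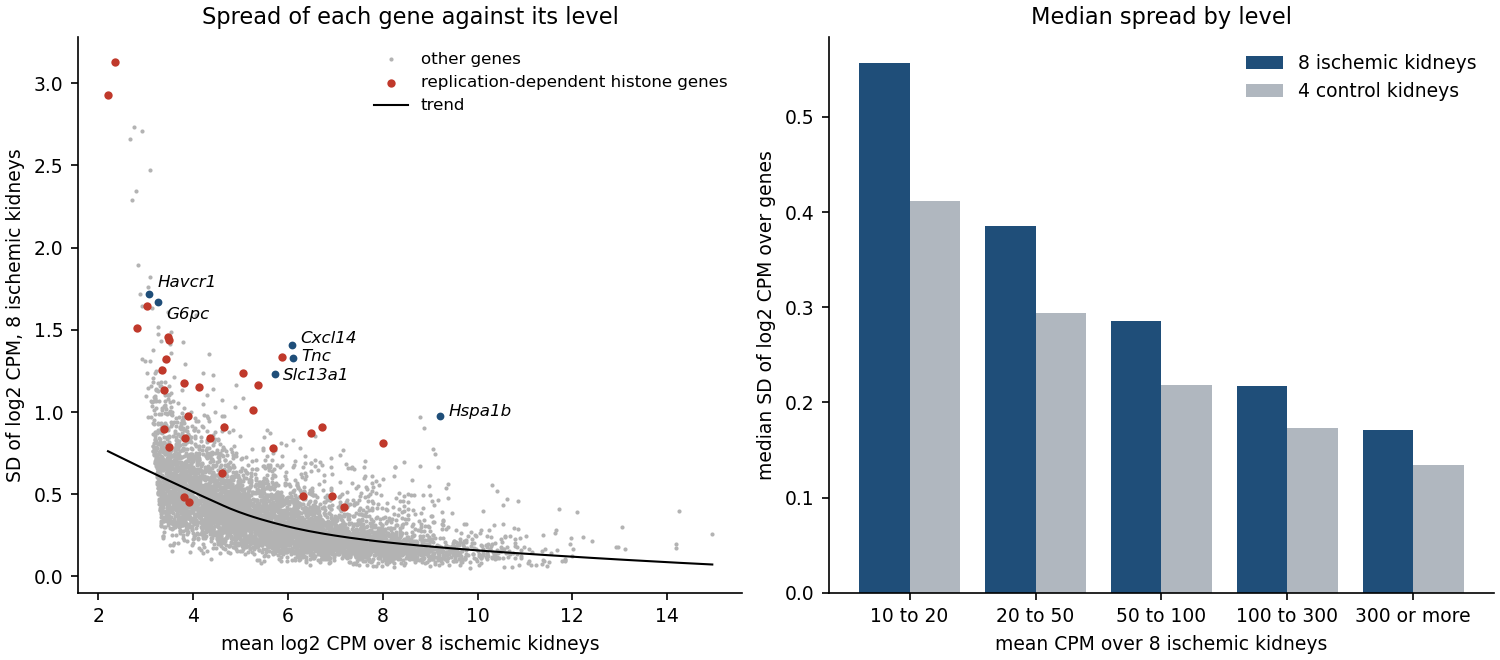
Left, SD of log2 CPM over the 8 ischemic kidneys (y axis) against mean log2 CPM (x axis) for 6216 genes, with the trend as a line, replication-dependent histone genes in red and 6 named genes in blue. Right, median SD for the 8 ischemic kidneys (dark bars) and the 4 controls (grey bars) in 5 bins of ischemic mean CPM. The dark bar is higher in every bin, 0.56 against 0.41 in the lowest and 0.17 against 0.13 in the highest. Genes are not matched for their level in controls.

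The genes of largest SD were mostly weakly expressed. Of 6216 genes, 113 (1.82%) had an SD of 1 or more, of which 94 lay at 10 to 20 CPM and none at 100 or more CPM. The 12 at the top were Hist1h2ac, Hist1h4b, Ccbl1, Fam124a, Svep1, Cda, Cckar, Ppp1r7, Cyp20a1, Dis3l, Tmem174 and Gnpat, with SDs from 3.13 down to 1.72. For most of them a single kidney, kidney 8, set the spread. Ccbl1, which encodes a kynurenine aminotransferase, measured 7.14, 18.9, 5.05, 17.3, 16.6, 11.8, 24.8 and 0 CPM in kidneys 1 to 8, and its SD of 2.74 fell to 0.82 without kidney 8. Fam124a ranged from 0 CPM in kidney 8 to 21.2 CPM in kidney 1, with a median of 14.6 CPM, and its SD of 2.71 became 0.35 without kidney 8. Svep1, which encodes an extracellular matrix protein, had SDs of 2.66 and 0.66 with and without it. Cda, the cytidine deaminase, and Cckar, the cholecystokinin A receptor, measured 0.0635 and 0.0635 CPM in kidney 8 and at least 8.22 and 5.96 CPM in every other ischemic kidney. Among the 100 genes of largest SD, 42 were lowest in kidney 8, against 1444 of 6216 (23.2%) over all genes, and 59 of the 100 were again among the top 100 when the same 6216 genes, with the same scaling, were ranked without kidney 8. Of the 100, 19 were called higher and 14 lower after ischemia by the edgeR quasi-likelihood test, against 21.2% and 20.2% of the 6216 genes and 12.8% and 13.7% of all 11664 tested (Benjamini-Hochberg adjustment over 11664 genes).

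Histone genes were the other feature of this ranking. The replication-dependent histones package newly made DNA, mostly lie in a cluster on chromosome 13 in the mouse and give mRNAs that mostly end in a stem-loop and lack a poly(A) tail, and the libraries were made with a kit that selects poly(A) RNA. The part of this in the values below was not tested. Of 31 histone genes at 10 or more CPM, 15 had an SD of 1 or more and 29 lay above the trend of SD on level, against 46.6% of all genes above that trend. Hist1h2ac measured 49.6, 20.7, 14.4, 1.33, 15.2, 0, 17.8 and 1.02 CPM in kidneys 1 to 8, so kidneys 4, 6 and 8 were near 0 and kidney 1 was highest. At a higher level, Hist1h2bc ranged from 12 CPM in kidney 8 to 221 CPM in kidney 1, with a median of 65.7 CPM, and Hist1h4c from 10.6 CPM in kidney 6 to 132 CPM in kidney 1, with a median of 47.4 CPM. As a set these genes varied about as widely in controls. The median SD of the 31 genes was 0.97 in the ischemic kidneys and 0.96 in the controls, where Hist1h2bc ran from 55.4 to 399 CPM. Single genes differed both ways. Hist1h2ac and Hist1h2ab had SDs of 3.13 and 1.32 in the ischemic kidneys and 0.87 and 0.37 in controls. Hist1h2ai and Hist1h3e had 1.51 and 0.84 in the ischemic kidneys and 2.84 and 1.59 in controls. None of these passed the test of spread after adjustment. Summed over the family, the level was 3270.3 CPM in kidney 1, 709 CPM in kidney 4 and 763 CPM in kidney 6, and 573 to 2311 CPM in the controls. Histone genes are near-identical copies of each other, so the share of reads given to each single gene is uncertain.

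The histone promoters carry letters in common. The 100 bases before the start site of the 4 histone genes of largest SD in the cluster of 45 genes described next that have a single entry in RefSeq (GRCm38.p6, the mm10 assembly) are shown because these genes varied together, with CCAAT and TATAAA, on either strand, in capitals.
Hist1h2ac (chr13:23683960-23684059, minus strand): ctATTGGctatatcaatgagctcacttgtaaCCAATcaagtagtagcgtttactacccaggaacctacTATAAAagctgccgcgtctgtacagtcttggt
Hist1h2ak (chr13:21753913-21754012, minus strand): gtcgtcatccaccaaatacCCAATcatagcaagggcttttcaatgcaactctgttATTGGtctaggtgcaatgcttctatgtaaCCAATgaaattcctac
Hist1h2ai (chr13:21716312-21716411, plus strand): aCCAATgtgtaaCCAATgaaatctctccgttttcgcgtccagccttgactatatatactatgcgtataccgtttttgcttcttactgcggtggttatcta
Hist1h2bl (chr13:21716184-21716283, minus strand): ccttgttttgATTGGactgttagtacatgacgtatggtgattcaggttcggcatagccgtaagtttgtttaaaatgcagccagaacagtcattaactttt
CCAAT or its reverse complement was present in the 250 bases before the start of 24 of 27 histone genes with a single entry (88.9%), against 34.7% of 22862 genes of any kind with a single entry, and TATAAA in 11 of 27 (40.7%), against 13.6%. Hist1h2ai and Hist1h2bl start close together on opposite strands, so their windows of 250 bases overlap. A match in the overlap counts for both genes, and the 27 histone promoters are thus not all separate stretches. These matches describe the sequence and say nothing of which factor acted.

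Clustering of the 200 genes of largest SD by their profile over the 8 kidneys gave 11 clusters of 5 or more genes. The largest, of 73 genes, held Hist1h4b, Ccbl1, Fam124a and Svep1, and 67 of the 73 were lowest in kidney 8. Without kidney 8 the largest set of the 73 that still clustered together had 10 members. The next, of 45 genes, held 17 histone genes with Hist1h2ac, Cyp20a1, Tmem174 and Hist1h2ak at its head, was highest in kidney 1 and lowest in kidney 4, and also included Avpr2, the vasopressin receptor of the collecting duct, and Hsd11b2, which protects the mineralocorticoid receptor from glucocorticoids. Several small clusters were each low in a single kidney. Havcr1, Gemin5, Krt80 and Lrch1 led 19 genes that were low in kidney 7, Nt5dc3, Pde3a, Scai and Pcdhgb4 led 12 genes low in kidney 2, Med16, Tprgl, Sh2d3c and Epb4.1l4a led 7 genes low in kidney 6, and G6pc, Pcdhga4, Tmem87b and Agphd1 led 6 genes low in kidney 1. Scai, for example, measured 1.07 CPM in kidney 2 and 9.87 to 26.3 CPM in the other 7. The members of these single-kidney clusters had median levels of 12.2 to 12.6 CPM. A cluster led by Pde1b, Plagl1, Wfdc2 and Epn3 and one led by Angptl7, C77080, Mcc and Scnn1g, of 7 genes each, were highest in kidney 8. A cluster led by Apex1, Tcf21, Zfp697 and H2-Aa was lowest in kidney 8, one led by Ogfr, Tgfbr3, Pitpnm3 and Foxq1 was low in kidneys 5 and 6, and one led by Rgs3, Thop1, Atp1b2 and Loxl1 was high in kidneys 2 and 3.

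Genes at higher levels were also ranked on their own, and their grouping was chosen after the values were seen. Of 3063 genes with a mean of 50 or more CPM, 163 (5.32%) had an SD of 0.5 or more. Among the 100 of largest SD, 14 belonged to the lists of tubule segment genes, 11 of them proximal, against 28 of all 3063 genes (0.914%), and 65 of the 100 were also among the top 100 without kidney 8. Among these 100 genes 33 were called higher and 33 lower after ischemia, against 28.8% and 22.4% of the 3063 genes. The 200 genes of largest SD at this level fell into 6 groups by profile, and 188 of the 200 were in one of them.

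**Figure D2:**
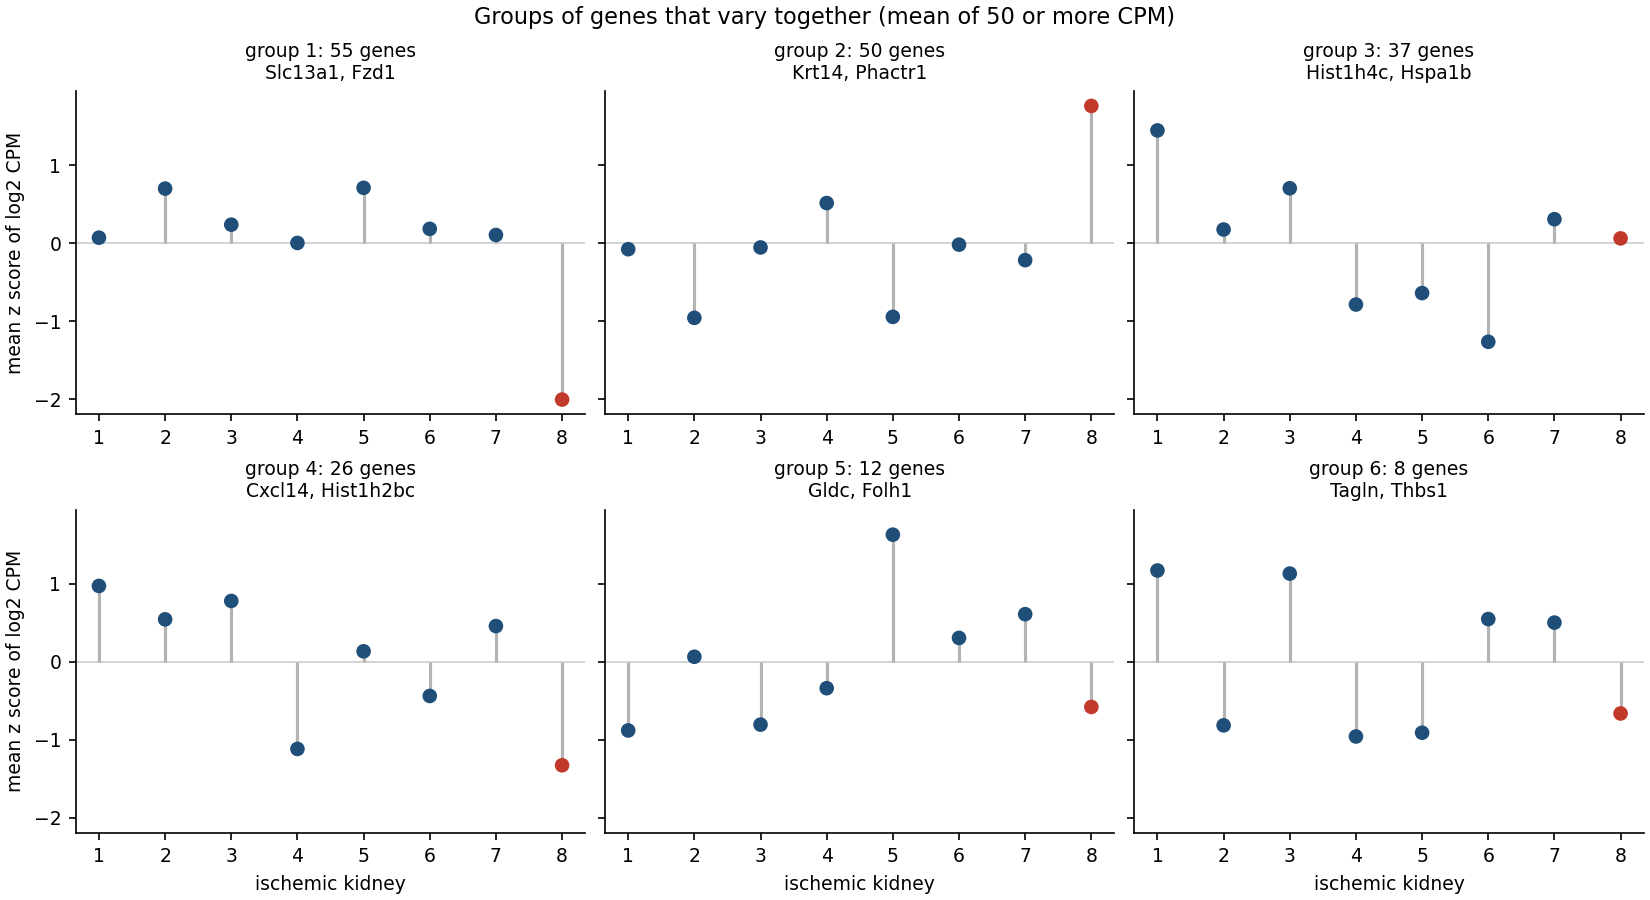
Mean z score of log2 CPM (y axis) in ischemic kidneys 1 to 8 (x axis) for the 6 groups formed by the 200 most variable genes with a mean of 50 or more CPM; kidney 8 is red, and the panel titles give the number of genes and the 2 of largest SD. Groups 1 and 2 mirror each other in kidney 8 (-2.01 and 1.76), group 5 peaks in kidney 5 (1.63), and group 6 is high in kidneys 1 and 3 (1.17 and 1.13).

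Group 1 held 55 genes, of which 54 were lowest in kidney 8 and 29 were lower after ischemia than in controls, against 22.4% of the 3063 genes. They included 4 genes of the proximal lists. Slc13a1, the sodium sulfate carrier, measured 34.1, 89.7, 45.3, 31.6, 163, 71.9, 105 and 10.7 CPM in kidneys 1 to 8 (SD 1.23, and 0.88 without kidney 8), against 73.1 to 95.2 CPM in controls. The kidneys thus lay on both sides of the controls, and the mean did not pass the test (log2 fold change -0.35 ± 0.42 (SE), adjusted p = 0.65). Lrp2, which encodes the endocytic receptor megalin, ranged from 39.2 CPM in kidney 8 to 187 CPM in kidney 5, with a median of 94.9 CPM, and every ischemic kidney lay below the controls (719.7 to 837 CPM, log2 fold change -2.78 ± 0.25 (SE), adjusted p = 2.56e-08). Hnf4a, a transcription factor that maintains proximal identity, ranged from 262 CPM in kidney 8 to 754 CPM in kidney 2, with a median of 558 CPM, against 1402 to 1598 CPM in controls. Vil1, the brush border villin, and Mep1a, a brush border protease, were likewise lowest in kidney 8, with 137 and 36.1 CPM. The group also contained genes with no special link to the proximal tubule, such as Bop1, a ribosome assembly factor, at 14.6 CPM in kidney 8 and 48.2 to 74.4 CPM in the others. Without kidney 8, the largest set of these 55 genes that still clustered together had 19 members.

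Group 2 held 50 genes, 48 of them highest in kidney 8, and 29 were higher after ischemia than in controls, against 28.8% of the 3063 genes. It included 5 genes of the distal lists and several keratins. Slc12a1, the sodium, potassium and chloride cotransporter of the thick ascending limb, lay between 124 and 197 CPM in kidneys 1 to 7 and measured 529 CPM in kidney 8, which stood above them, and controls were at 1469 to 1570.1 CPM. Casr, the calcium-sensing receptor of the same segment, reached 551 CPM in kidney 8, where kidneys 1 to 7 lay between 143 and 257 CPM. Foxi1, the transcription factor of intercalated cells, ranged from 104 CPM in kidney 2 to 352 CPM in kidney 8, with a median of 169.7 CPM. Krt14, Krt5 and Krt19 were above the controls in all 8 kidneys. Krt14 ranged from 24.4 CPM in kidney 2 to 134 CPM in kidney 8, with a median of 60.6 CPM, against 1.05 to 7.64 CPM in controls (log2 fold change 3.88 ± 0.51 (SE), adjusted p = 5.19e-06). Krt5 ranged from 62.5 CPM in kidney 2 to 267 CPM in kidney 8, with a median of 122 CPM (log2 fold change 3.83 ± 0.36 (SE), adjusted p = 5.8e-08), and Krt7 and Krt19, keratins of simple epithelia, reached 911 and 439 CPM in kidney 8. The metallothioneins Mt1 and Mt2, which bind zinc, were in the group too, at 104 and 229 CPM in kidney 5, their lowest, and 388 and 719 CPM in kidney 8. Of these 50 genes 40 still clustered together without kidney 8. Over all 50 genes and all 8 kidneys, kidneys 2 and 5 had the lowest mean z scores (-0.96 and -0.95).

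Groups 3, 4 and 6 were high in kidney 1 and kidney 3. Group 3 held 37 genes, 5 of them histones, together with the inducible heat shock genes Hspa1a and Hspa1b. Hspa1b measured 1305, 705, 899.7, 238, 316, 267, 792 and 1131 CPM in kidneys 1 to 8 and 52.7 to 372 CPM in controls, so both groups spanned a wide range and overlapped (log2 fold change 1.55 ± 0.47 (SE), adjusted p = 0.0167). The SD was 1.28 in controls and 0.97 in the ischemic kidneys. Hspa1a and Hspa1b are near-identical copies, so the share of reads given to each is uncertain. Jund, Cebpb and Ier5, which respond early to stimuli, and the collagen genes Col1a1 and Col1a2 were in the same group, and Col1a1 ranged from 732 CPM in kidney 4 to 2167 CPM in kidney 1, with a median of 1186 CPM, all above the controls at 329 to 425 CPM.

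Group 4 held 26 genes, 3 of them histones, and included genes of the extracellular matrix. Tnc, which encodes the matrix protein tenascin C, was low in controls (3.28 to 5.56 CPM) and measured 186, 54.9, 173, 18.7, 74.7, 97.3, 121 and 17.2 CPM in ischemic kidneys 1 to 8 (log2 fold change 4.50 ± 0.60 (SE), adjusted p = 5.88e-06). It was thus above the controls in all 8 kidneys, least in kidneys 8 and 4, and its SD was 1.33, or 1.14 without kidney 8. Cxcl14, a chemokine, measured 186, 94.9, 199.9, 31, 57, 83.3, 87.6 and 10.1 CPM, with kidneys 1 and 3 highest and kidney 8 below every control (28.4 to 49.6 CPM), and the difference of means did not pass the test (adjusted p = 0.0635). Biglycan, encoded by Bgn, ranged from 34.7 CPM in kidney 8 to 213 CPM in kidney 3, with a median of 91.6 CPM, and fibronectin, encoded by Fn1, from 41.2 CPM in kidney 4 to 165 CPM in kidney 1, with a median of 95.7 CPM. Lgals1, Fbn1, Col5a1, Col6a3, Nid1, Tgfbi and Serpinh1 were further members.

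Group 6 was small, and its 8 genes kept together in full when kidney 8 was left out. It held the contractile genes Acta2, Tagln, Myl9 and Cnn2 with Thbs1, Tgfb3, Ctgf and Itga5. Acta2, the smooth muscle actin that marks pericytes, vessel walls and myofibroblasts, measured 1179.7, 407, 1042, 474, 504, 801, 756 and 527 CPM in kidneys 1 to 8, against 134 to 271 CPM in controls (log2 fold change 1.80 ± 0.27 (SE), adjusted p = 3.09e-05). Thbs1, which encodes thrombospondin 1, ranged from 326 CPM in kidney 4 to 1148 CPM in kidney 1, with a median of 549 CPM (log2 fold change 1.41 ± 0.28 (SE), adjusted p = 0.000675). Kidneys 1 and 3 were the highest for both genes. Ctgf, a connective tissue growth factor, and Itga5, the fibronectin receptor subunit, followed with 131 to 355 CPM and 99.9 to 234 CPM. Myl9 did not pass the test between groups (adjusted p = 0.929), and its ischemic values of 51.6 to 134 CPM enclosed those of the controls (68.8 to 124 CPM). The summed level of 9 fibroblast and smooth muscle markers ran from 1675 CPM in kidney 4 to 4317 CPM in kidney 1 and 755 to 988 CPM in controls. Kidneys 3 and 7 followed kidney 1 at 3594 and 3588 CPM, while groups 3, 4 and 6 were high in kidneys 1 and 3. Of these markers Acta2 and Tagln are in group 6, Col1a1 and Col1a2 in group 3, Myh11 in group 2 and none in group 4. The endothelial score was 0.38, 0.48 and 0.52 in kidneys 1, 3 and 7 and -0.51 in kidney 8. The part of a different share of stromal tissue in the samples was not tested.

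Group 5 held 12 genes, 6 of them from the proximal lists, and 10 were lower after ischemia than in controls, against 22.4% of the 3063 genes. Of the 12 genes 11 still clustered together without kidney 8. Kidney 5 was the highest kidney for every member but Gldc, and the mean z score was lowest in kidneys 1 and 3 (-0.88 and -0.81). Slc5a2, the glucose carrier SGLT2, measured 35.3, 45.9, 38.1, 71.6, 137, 37, 62.3 and 32.4 CPM in kidneys 1 to 8 (log2 fold change -2.20 ± 0.28 (SE), adjusted p = 4.33e-06), with controls at 241 to 301 CPM. Gatm, the first enzyme of creatine synthesis, ranged from 45.7 CPM in kidney 4 to 179 CPM in kidney 5, with a median of 72.5 CPM, and Slc4a4, the basolateral bicarbonate carrier, from 135 CPM in kidney 1 to 463 CPM in kidney 5, with a median of 246 CPM. Folh1, a membrane carboxypeptidase of the brush border, reached 164 CPM in kidney 5, inside the range of the controls (128 to 179 CPM), and was at 34.3 CPM in kidney 3. Gldc, the glycine cleavage enzyme, ran from 19.4 CPM in kidney 3 to 84.5 CPM in kidney 6, so that kidneys 5, 6 and 7 lay above and kidneys 1, 2 and 3 below the controls (42.4 to 76.3 CPM), and the group means did not pass the test (adjusted p = 0.975).

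**Figure D3:**
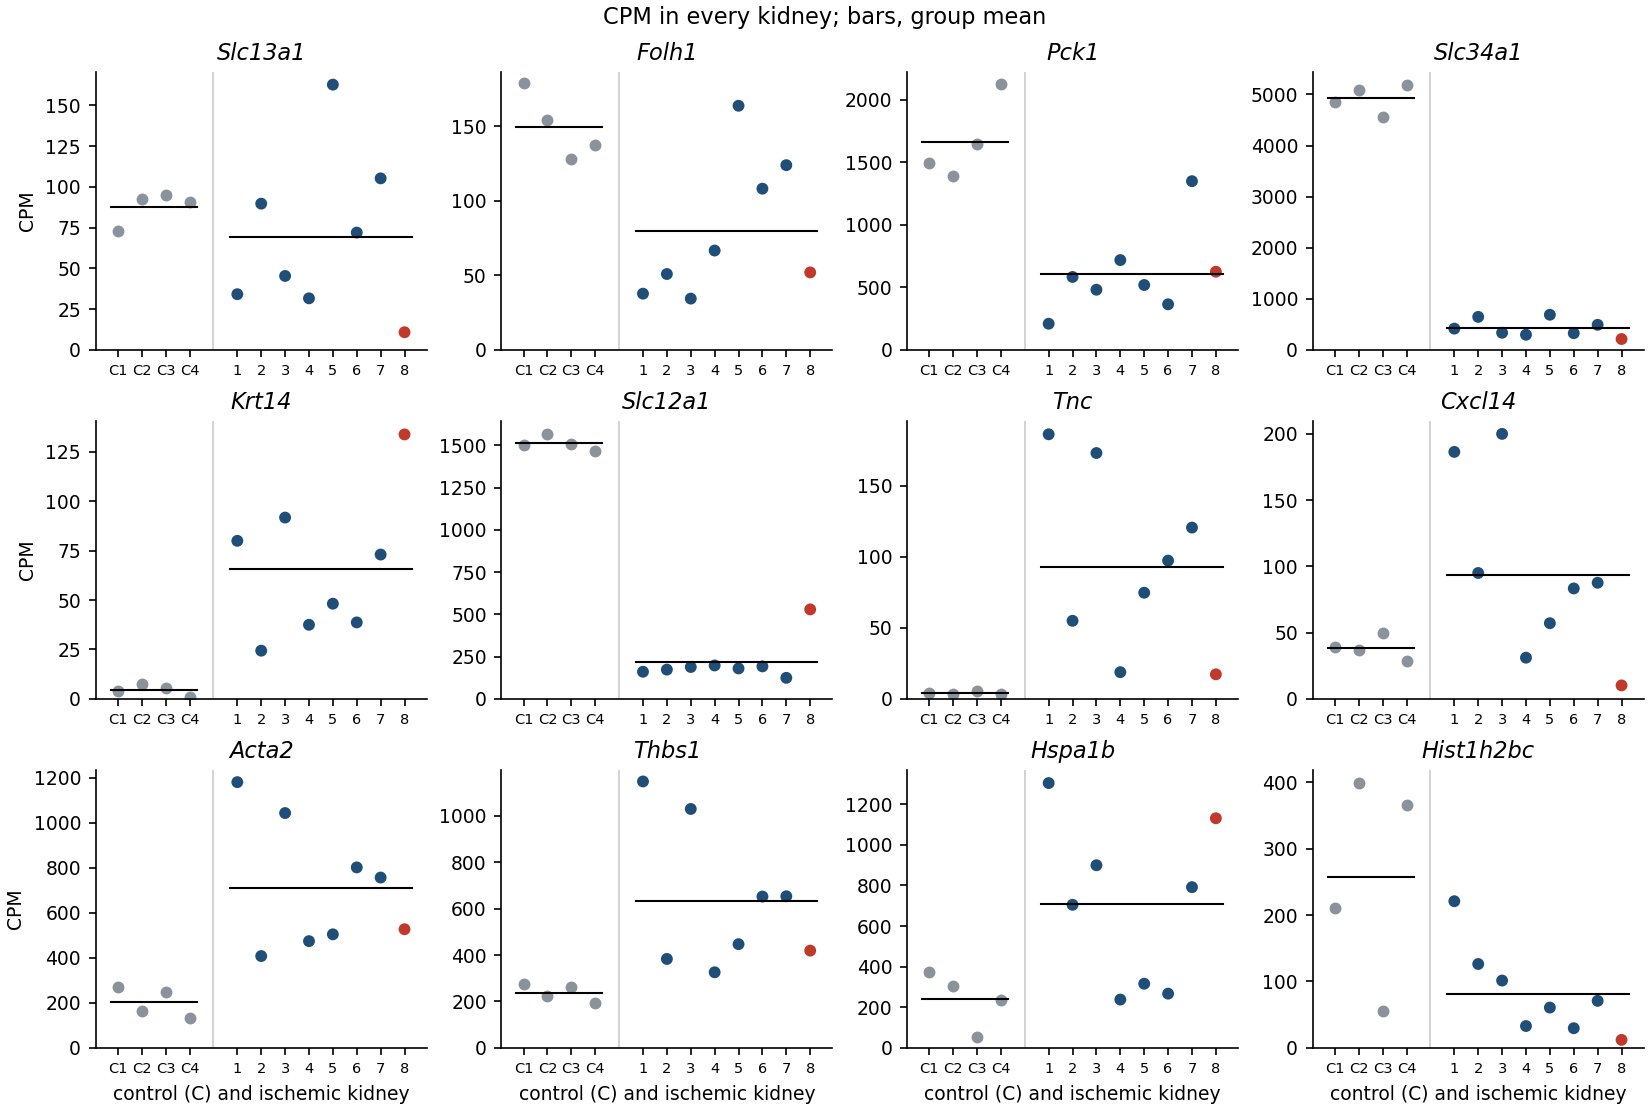
CPM (y axes, from 0) of 12 genes in control kidneys C1 to C4 (grey) and ischemic kidneys 1 to 8 (blue, kidney 8 red), 1 point per kidney, with the group mean as a bar. Slc34a1 and Slc12a1 lie far below the controls in every ischemic kidney, Folh1 in kidney 5 lies within them, and Tnc, Acta2 and Thbs1 are highest in kidneys 1 and 3.

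Whether the kidneys formed an order was tested with scores. A score is the mean, over the genes of a list with 10 or more CPM, of log2 CPM minus that gene's mean over the 8 kidneys, so that 0 is the ischemic average. The 32 proximal genes (transport, metabolism and the straight segment) scored -0.44, 0.32, -0.29, 0.01, 0.68, 0.03, 0.23 and -0.54 in kidneys 1 to 8, with controls at 2.38 to 2.49. Kidney 5 retained the most proximal transcript and kidneys 8 and 1 the least, and even kidney 5 lay well below the controls. Of the 32 genes, 28 were below all controls in all 8 kidneys, against 15.8% of the 6216 genes. Kidney 5 was the highest kidney for 16 of the 32, against 12% of all genes, and kidney 8 the lowest for 16, against 23.2%. Within the proximal lists 17 of 18 transport genes and 11 of 12 metabolism genes were lower after ischemia, against 20.2% of the 6216 genes, and none was higher. Their SDs exceeded the trend in 17 of 18 and 10 of 12 genes, against 46.6% of the 6216 genes, with median SDs of 0.68 and 0.62.

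Slc5a12, a lactate carrier of the proximal tubule, differed widely between kidneys, with 17.5, 13.5, 9.34, 14.1, 75.2, 28.4, 62.2 and 30 CPM in kidneys 1 to 8 and 119 to 153 CPM in controls (log2 fold change -2.13 ± 0.40 (SE), adjusted p = 0.000328). Kidneys 5 and 7 were the high ones, kidneys 1 to 4 all lay below kidneys 5 to 8, and no kidney reached the controls. Slc22a8, an organic anion carrier, ranged from 1.97 CPM in kidney 8 to 33.3 CPM in kidney 2, with a median of 13.2 CPM, and Slc22a6, its basolateral partner, from 91.6 CPM in kidney 8 to 351 CPM in kidney 2, with a median of 220.3 CPM. Slc34a1, the phosphate carrier, measured 413, 643, 333, 294, 685, 323, 488 and 209 CPM against 4559 to 5186 CPM in controls (log2 fold change -3.54 ± 0.22 (SE), adjusted p = 1.62e-10), so the differences among the ischemic kidneys were small beside the loss they shared. Among the metabolic genes, G6pc, the last enzyme of glucose production, measured 0.603, 10.9, 6.39, 12, 15, 13.2, 29.9 and 19.3 CPM, near 0 in kidney 1, and controls measured 144 to 198 CPM. Pck1, the enzyme that commits to gluconeogenesis, ranged from 208 CPM in kidney 1 to 1348 CPM in kidney 7, with a median of 549.6 CPM, with the other 6 between 363 and 717 CPM. Acsm3, a medium-chain acyl-CoA synthetase, went its own way, from 2.61 CPM in kidney 7 to 23.9 CPM in kidney 2, with a median of 11.3 CPM, against 281 to 521 CPM in controls.

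The distal nephron genes were scored in the same way. The 29 genes of the thick ascending limb, distal convoluted and connecting tubule and collecting duct scored 0.01, -0.14, -0.13, 0.13, -0.44, -0.13, -0.07 and 0.76 in kidneys 1 to 8, with controls at 0.44 to 0.71. The range of the distal score over the kidneys was 1.20, and 0.65 without kidney 8. Kidney 8 was the highest kidney for 20 of the 29 genes, against 21.6% of all genes, and kidney 5 was the lowest for 10, against 9.31%. In the thick ascending limb list 5 of 9 genes were lower, in the distal convoluted and connecting tubule 3 of 8, and in the collecting duct 1 of 12, against 20.2% of the 6216 genes, so that the collecting duct count was below the share of all genes, and none was higher. As in the proximal lists, most SDs exceeded the trend, in 9 of 9, 7 of 8 and 12 of 12 genes, against 46.6% of the 6216 genes. Cldn10, a pore-forming claudin of the thick ascending limb list, was lowest in kidney 8 at 2.03 CPM, unlike most of that list. It was highest in kidney 2 at 22.7 CPM. Umod, which encodes uromodulin, ranged from 76 CPM in kidney 5 to 208 CPM in kidney 8, with a median of 119.8 CPM, on both sides of the controls (111 to 119 CPM, adjusted p = 0.675). Egf, the growth factor made by the distal segments, was so low in all 8 kidneys (0 CPM in kidney 7 to 6.76 CPM in kidney 2) that it was not ranked, against 192 to 226 CPM in controls. Calb1, a calcium buffer of the connecting tubule, ranged from 85.2 CPM in kidney 5 to 375 CPM in kidney 4, with a median of 141 CPM. In the collecting duct Scnn1g, a subunit of the epithelial sodium channel, measured 6.83, 7.15, 3.35, 7.35, 4.92, 12.5, 14.3 and 37.9 CPM, and Aqp2, the vasopressin-regulated water channel, ranged from 5.08 CPM in kidney 7 to 33.7 CPM in kidney 8, with a median of 16 CPM. Trpm6, the magnesium channel, and Klk1, the tissue kallikrein, varied by SDs of 0.75 and 0.72 and did not pass the test between groups.

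**Figure D4:**
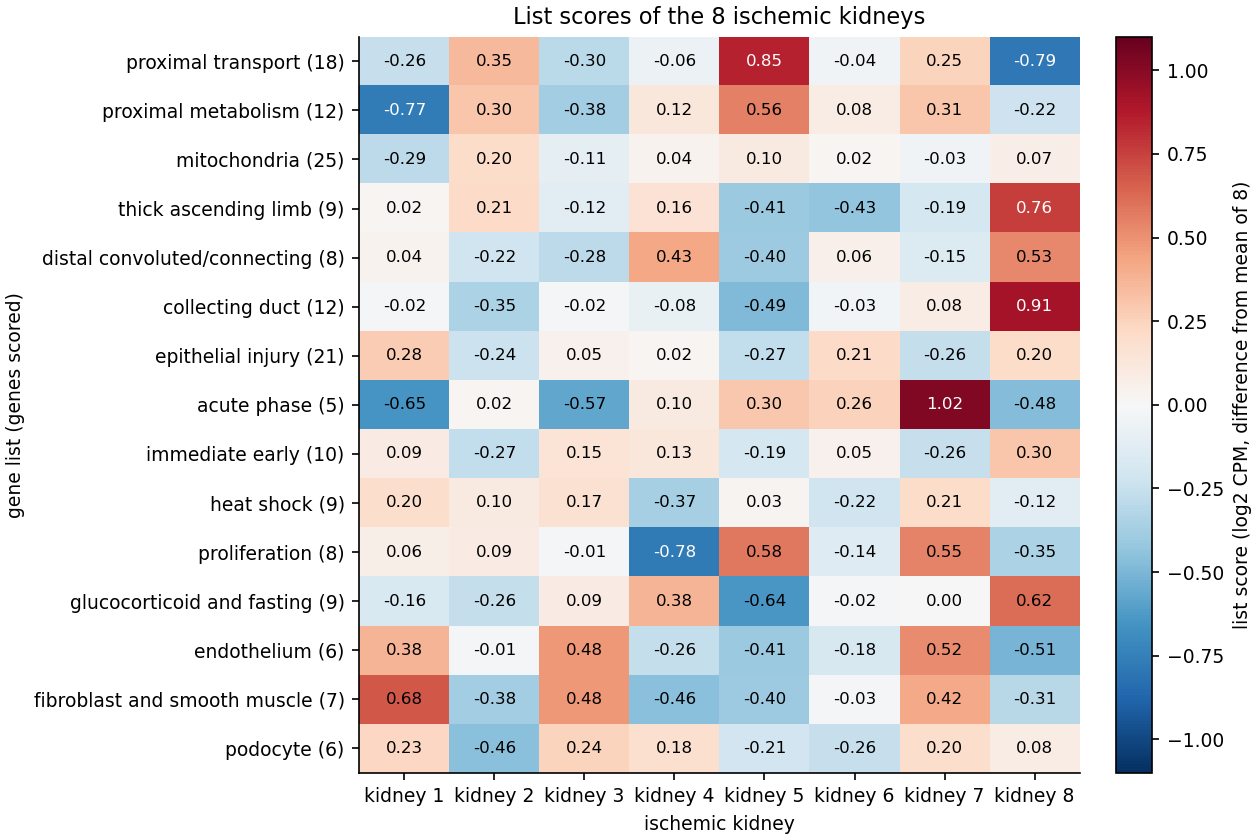
Scores of 15 gene lists (rows, number of genes scored in brackets) in ischemic kidneys 1 to 8 (columns), as the mean difference in log2 CPM from the average of the 8 kidneys, with the value printed in each cell. Proximal transport runs from -0.79 in kidney 8 to 0.85 in kidney 5, collecting duct from -0.49 in kidney 5 to 0.91 in kidney 8, and acute phase peaks in kidney 7 at 1.02.

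The genes of the injured epithelium differed far less between kidneys than they differed from controls, in log2 units. Their 21 members scored 0.28, -0.24, 0.05, 0.02, -0.27, 0.21, -0.26 and 0.20 in kidneys 1 to 8 and -5.49 to -5.06 in controls. The list was split in kidney 8, which was the highest kidney for 8 of the 21 and the lowest for 5. Over all genes these shares were 21.6% and 23.2%. Krt7, Krt19 and Sprr2g, 3 of the 21, were in group 2 with genes of the distal lists. The part of this in the injury score was not tested. Of 34 listed genes 33 passed the filter on counts, and of these 27 were higher after ischemia and none lower, against 12.8% and 13.7% of the 11664 genes. The 21 were scored because they had 10 or more CPM in the ischemic kidneys, and 13 of them had a mean below 10 CPM in controls and so entered through the group in which they were high. In 19 of the 21 all 8 kidneys were above all controls, against 14.5% of the 6216 genes, a count which that choice favours. Havcr1 measured 12.8, 3.98, 14, 15, 21, 24.9, 0.58 and 6.29 CPM in kidneys 1 to 8 and at most 0.026 CPM in a control. It was near 0 in kidney 7, and with an SD of 1.72 it was the most variable member. The SD of Havcr1 was 0.93 without kidney 7, where it had 12 counts. Lcn2 ranged from 4.45 CPM in kidney 2 to 27.2 CPM in kidney 6, with a median of 12.6 CPM, and was highest in kidney 6, as Havcr1 was. Sprr1a, a cornified envelope protein, ranged from 8.01 CPM in kidney 4 to 55.9 CPM in kidney 1, with a median of 28.2 CPM, with kidneys 1 and 3 highest. Krt20, a keratin of injured tubules, ranged from 14 CPM in kidney 8 to 56.5 CPM in kidney 4, with a median of 27.6 CPM, and Hk2, the hexokinase of glycolytic cells, from 11.7 CPM in kidney 8 to 31 CPM in kidney 1, with a median of 16.4 CPM, and the highest control values were 0.24 and 0.0386 CPM. Spp1, which encodes osteopontin, and Clu, which encodes clusterin, were both abundant, at 464 to 942 CPM and 112 to 193 CPM. Their SDs of 0.34 and 0.29 exceeded the medians of 0.17 at 300 or more CPM and 0.22 at 100 to 300 CPM. Of the 21 genes 20 had an SD above the trend, against 46.6% of the 6216 genes.

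The proximal and the injury scores gave a negative coefficient over the 8 kidneys, which did not pass after adjustment (Pearson r = -0.85, exact permutation p = 0.00853, adjusted p = 0.0718, Spearman rho = -0.79, exact permutation p = 0.0279, adjusted p = 0.133). Kidneys 2, 5 and 7 had the higher proximal and the lower injury scores. Adjustment was over 19 relations between scores, 6 of which had an unadjusted p under 0.05, and none passed. The coefficient was -0.81 without kidneys 5 and 8, -0.84 without kidney 8 and -0.85 with the mean of each titled set removed. With 4 kidneys in each titled set no coefficient was computed within a set. This pairing of scores was chosen after the data were seen. Proximal and distal genes together gave a single tubule score of -0.22, 0.10, -0.21, 0.07, 0.15, -0.05, 0.09 and 0.08 in kidneys 1 to 8. Its range was 0.37, against 1.22 for the proximal score. Proximal and distal scores offset each other in it, as in kidney 8 (-0.54 and 0.76), so it is no measure of proximal loss alone. Its coefficient with injury was smaller by Pearson and no smaller by Spearman (Pearson r = -0.66, exact permutation p = 0.0775, adjusted p = 0.164, Spearman rho = -0.86, exact permutation p = 0.0107, adjusted p = 0.0974). Both coefficients were near 0 when members under 10 CPM were also scored, with r = 0.08 for the proximal and r = 0.15 for the tubule score. All scores come from the same libraries and are shares of the same totals, so they are not independent of each other.

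Proximal transport and collecting duct scores gave a negative coefficient too, which did not pass after adjustment (Pearson r = -0.85, exact permutation p = 0.0113, adjusted p = 0.0718, Spearman rho = -0.71, exact permutation p = 0.0576, adjusted p = 0.219). The coefficient was -0.79 without kidney 8, -0.46 without kidneys 5 and 8, and -0.95 with the mean of each titled set removed. For the thick ascending limb the coefficient was -0.66 (exact permutation p = 0.0743, adjusted p = 0.164) and was -0.32 without kidney 8 and 0.19 without kidneys 5 and 8. For the distal convoluted and connecting tubule it was -0.72 (exact permutation p = 0.0442, adjusted p = 0.14) and was -0.52 without kidney 8 and -0.21 without both. Over the combined lists, proximal against distal did not pass after adjustment (Pearson r = -0.74, exact permutation p = 0.0305, adjusted p = 0.116, Spearman rho = -0.83, exact permutation p = 0.0154, adjusted p = 0.0974), and r was -0.68 without kidney 8 and -0.24 without kidneys 5 and 8. The tubule score and 25 genes of the mitochondrial respiratory chain and citrate cycle also did not pass after adjustment (Pearson r = 0.84, exact permutation p = 0.00737, adjusted p = 0.0718, Spearman rho = 0.83, exact permutation p = 0.0154, adjusted p = 0.0974), of which 22 were lower after ischemia, against 20.2% of the 6216 genes. Their scores ran only from -0.29 in kidney 1 to 0.20 in kidney 2, and without kidneys 1 and 3 the coefficient was 0.37. Library size was compared with 4 scores, and none passed the test. The tubule score gave r = -0.57 (exact permutation p = 0.15, adjusted p = 0.236), which turned to 0.71 without kidneys 1 and 3. The distal score gave r = -0.53 (exact permutation p = 0.173, adjusted p = 0.236), and the injury score r = -0.13 (exact permutation p = 0.74, adjusted p = 0.824). The proximal score gave a coefficient near 0 that was -0.64 without kidneys 5 and 8 (r = 0.02, exact permutation p = 0.958, adjusted p = 0.958). With 8 kidneys, p-values of this size do not show that scores and library size were unrelated.

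A second measure placed each kidney between control and ischemia with genes chosen without it. For each kidney in turn, genes lower and higher after ischemia were called from the other 7 and the controls (1419 to 1588 and 1223 to 1364 genes with 10 or more CPM in either group), and the position of the kidney was the median over genes of its change from control divided by the mean change of the other 7, so that 1 means the same change and 0 the control level. On the genes that fell, kidneys 1 to 8 stood at 1.02, 0.83, 1.02, 0.98, 0.81, 0.97, 0.96 and 1.11. On the genes that rose they stood at 0.99, 0.91, 1.03, 1.01, 0.91, 1.002, 0.98 and 0.99. Kidneys 5 and 2 were nearest to the controls on both, kidney 8 had lost the most, and kidney 3 had gained the most. Loss and gain gave a positive coefficient over the 8 kidneys, which did not pass after adjustment (Pearson r = 0.81, exact permutation p = 0.0208, adjusted p = 0.0986, Spearman rho = 0.62, exact permutation p = 0.115, adjusted p = 0.273), and the coefficient was 0.95 without kidney 8. Kidneys 2 and 5 were the lowest on both measures, and among the other 6, kidney 8 included, it was -0.13.

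**Figure D5:**
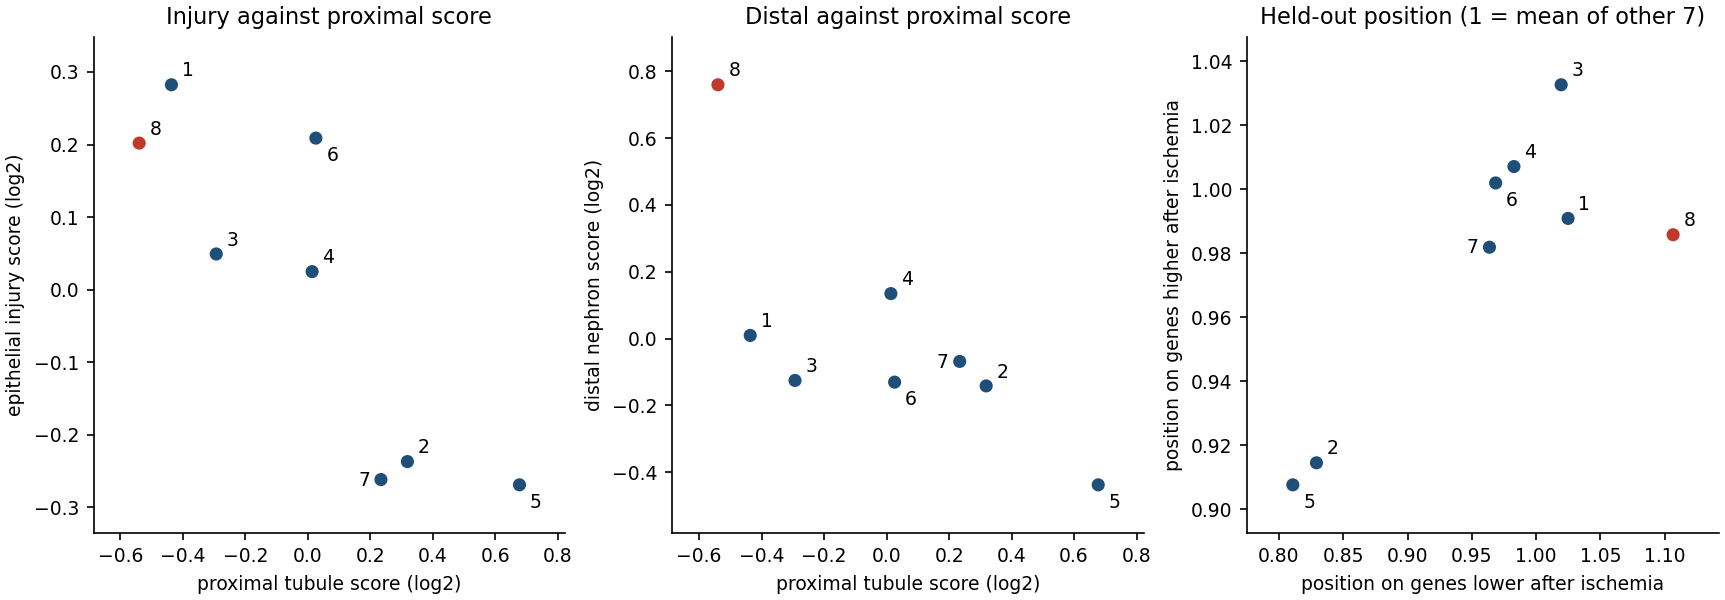
Ischemic kidneys 1 to 8 (1 numbered point each, kidney 8 in red) by proximal score against injury score (left), proximal against distal score (middle), both in log2 units from the mean of 8, and held-out position on genes lower against genes higher after ischemia (right, 1 being the mean of the other 7 kidneys). Kidney 5 lies at the upper end of the proximal axis (0.68) and kidney 8 at the lower end (-0.54), and kidneys 2 and 5 lie apart on the right at 0.83 and 0.81 on genes that fell.

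Among genes in no list with 50 or more CPM and an SD of 0.5 or more, the 5 whose profile was most like the tubule score were Adh1, Folh1, Idh1, Enpp2 and Tmem252 (Pearson r from 0.47 to 0.75 over the 8 kidneys). Adh1, an alcohol dehydrogenase, ranged from 59.8 CPM in kidney 3 to 195 CPM in kidney 5, with a median of 125 CPM, and Enpp2, which encodes autotaxin, from 48.3 CPM in kidney 3 to 152 CPM in kidney 5, with a median of 66.2 CPM, both below the controls (389 to 562 and 260.3 to 300.1 CPM) in every ischemic kidney. Idh1, the cytosolic isocitrate dehydrogenase, measured 362 CPM in kidney 5, above the controls at 269 to 327 CPM, and 115 CPM in kidney 8. The 5 most opposed were Thbs1, Tgfb3, Ctgf, Dlc1 and Rhob (r from -0.88 to -0.76). Dlc1 and Rhob act on the actin cytoskeleton, and Rhob ranged from 60.2 CPM in kidney 5 to 183 CPM in kidney 1, with a median of 97.7 CPM. These genes were chosen for their coefficient, which is a description.

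Of 15 acute phase genes 7 passed the filter on counts, and 6 of these 7 were higher after ischemia, where 12.8% of the 11664 genes were higher and 13.7% lower. The 5 members with 10 or more CPM in the ischemic kidneys all had a mean below 10 CPM in controls, so they were scored through the group in which they were high. They scored -0.65, 0.02, -0.57, 0.10, 0.30, 0.26, 1.02 and -0.48 in kidneys 1 to 8, highest in kidney 7 and lowest in kidneys 1 and 3. Neither the tubule score (Pearson r = 0.64, exact permutation p = 0.0968, adjusted p = 0.184, Spearman rho = 0.67, exact permutation p = 0.0831, adjusted p = 0.226) nor the injury score (Pearson r = -0.68, exact permutation p = 0.0629, adjusted p = 0.164, Spearman rho = -0.69, exact permutation p = 0.0694, adjusted p = 0.22) passed the test with them after adjustment. Without kidneys 1 and 3 the first coefficient was 0.04, and without kidneys 5 and 7 the second was -0.38. Fga, the fibrinogen alpha chain, measured 15.3, 34.5, 18.2, 37.7, 32, 26.1, 76.7 and 15.9 CPM, against 3.27 to 9.88 CPM in controls (log2 fold change 2.09 ± 0.43 (SE), adjusted p = 0.000742). Fgb and Fgg, the other chains, ranged from 2.25 CPM in kidney 1 to 22.2 CPM in kidney 6, with a median of 10.8 CPM, and from 3.61 CPM in kidney 3 to 31.5 CPM in kidney 5, with a median of 17.7 CPM. Complement C3, encoded by C3, ranged from 53.7 CPM in kidney 1 to 192 CPM in kidney 7, with a median of 85.2 CPM, again with kidney 7 highest. Socs3, the feedback inhibitor of STAT3 signalling, did not follow them, with 22.3 CPM in kidney 1 and 4.89 CPM in kidney 8. Read against the same shares, 8 of 14 immediate early genes were higher after ischemia and 1 lower. Of the 10 that were scored, 4 had a mean below 10 CPM in controls. The 10 that were scored ran from -0.27 in kidney 2 to 0.30 in kidney 8, and their most variable members were Zfp36, Atf3 and Btg2 (SDs 0.67, 0.65 and 0.60), of which Zfp36, which destabilises inflammatory mRNAs, was lowest in kidney 7 at 6.48 CPM. The SD of Zfp36 was 0.35 without kidney 7. The 8 proliferation genes that were scored were highest in kidneys 5 and 7 (0.58 and 0.55) and lowest in kidney 4 (-0.78). Of these 8 genes, 6 had a mean below 10 CPM in controls and so entered through the group in which they were high. Of 14 tested 7 were higher after ischemia and none lower, against 12.8% and 13.7% of the 11664 genes. Of 11 genes known to respond to glucocorticoids and fasting, 6 were higher and 1 lower after ischemia, read against the same shares. The scores of 9 of them, 2 with a mean below 10 CPM in controls, ran from -0.64 in kidney 5 to 0.62 in kidney 8. The 6 clock genes that were scored stood at 0.19, 0.15, 0.06 and 0.24 in kidneys 1 to 4. In kidneys 5 to 8 they stood at -0.11, -0.29, -0.11 and -0.12, so the titled sets did not overlap. The cause of this difference was not tested.

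Some genes hardly varied. Among genes at 100 or more CPM the smallest SDs belonged to Arpc2, Rpl9, Ctnnb1, Capzb and Ptpn23. Arpc2, an actin nucleation subunit, lay between 864 and 963 CPM in the 8 kidneys (SD 0.05) and at 484 to 616 CPM in controls (log2 fold change 0.80 ± 0.09 (SE), adjusted p = 7.46e-07). Ptpn23, an endosomal sorting protein, lay between 232 and 262 CPM, and controls at 77.8 to 91.4 CPM (log2 fold change 1.60 ± 0.10 (SE), adjusted p = 3.5e-10). Both were thus raised to nearly the same level in all 8 kidneys. Ctnnb1, which encodes beta-catenin, ranged only from 1597 to 1776 CPM.

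Markers of other cells were mostly scarce. The 8 podocyte genes summed to 362 to 604 CPM in the ischemic kidneys and 367 to 483 CPM in controls. The 10 endothelial genes summed to 142 to 317 CPM, lowest in kidney 8 and highest in kidney 1, and 231 to 345 CPM in controls, and 6 of them could be scored. Myeloid genes (13 measured) summed to 12.1 to 44.7 CPM, below the controls at 48 to 68.2 CPM, with Tyrobp at 0 counts in all 8 kidneys and a single member at 10 or more CPM. H2-Aa, an antigen presentation gene of myeloid and B cells, ranged from 2.6 CPM in kidney 8 to 26.7 CPM in kidney 1, with a median of 9.64 CPM, against 51.7 to 122 CPM in controls (log2 fold change -2.52 ± 0.40 (SE), adjusted p = 6.06e-05). Neutrophil genes (7 measured) did not exceed 6.36 CPM in sum, and S100a8 and Retnlg were at 0 counts. Red cell, fat, adrenal, skeletal muscle and pancreas lists had no member at 10 or more CPM, and their sums did not exceed 10.4 CPM in any ischemic kidney. The lymphocyte sum did not exceed 0.536 CPM. Urothelial genes summed to 62.6 CPM in kidney 2 and 268 CPM in kidney 8, and to 9.17 to 16.8 CPM in controls. Only Krt5 was at 10 or more CPM. Of the listed uroplakins, Upk2, Upk3a and Upk3b were at 0 counts in all 8 kidneys, while Upk1a and Upk1b were not. Of the 6 listed genes 3 passed the filter on counts. Genes of the proximal tubule, thick ascending limb, collecting duct and podocyte, which mark the labelled tissue, were measured in the 8 kidneys.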

How the data were processed

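Kidney RNA from 12 mice was sequenced as single reads from poly(A)-selected stranded libraries. The deposited table holds raw counts per gene, which the authors made with STAR and HTSeq on mm10 according to the submitters' processing notes (versions are not given in the sources used here). Depth was 15367342 to 44793350 counts per kidney. Counts were scaled by TMM in edgeR 4.0.16 (R 4.3.3), genes were kept with filterByExpr, and log2 CPM was computed with a prior count of 2. Spread was the SD of log2 CPM over the 8 ischemic kidneys for genes with a mean of 10 or more CPM. Ischemia was compared with control by the edgeR quasi-likelihood test, two-sided, with all 12 kidneys and no covariate, at an adjusted p of 0.05 (Benjamini-Hochberg). The difference in spread was tested with limma 3.58.1 on absolute deviations from the group mean. Relations between scores were tested by exact permutation over all 40320 orders of 8 kidneys, two-sided. The 200 genes of largest SD were clustered by average linkage on 1 minus Pearson r, with the tree stopped at a height of 0.5 and clusters of 5 or more genes kept. Alternatives were RLE scaling, DESeq2 1.42.0, other filters and prior counts, other measures of spread, thinning to the smallest library, and leaving out each kidney.

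Genes named in the text were the 12 of largest SD, the 3 of largest SD in each of 8 lists, the 4 of largest SD in each cluster, the 5 most like and 5 most unlike the tubule score, 7 genes taken whatever their values, and the 5 of smallest SD at 100 or more CPM. Other genes were named after their values were seen, and results for some genes are not reported here. The members, gene lists and tests were chosen with earlier results of these data known. The scripts were tested on simulated data, where the test of spread had little power with 8 kidneys against 4. Promoter sequences came from RefSeq (GRCm38.p6).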

Additional observations from a re-analysis of the deposited data

Results flagged for a closer look

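Values were compared within each group by the gap of the highest or lowest kidney to its nearest neighbour, divided by the range of the group (Dixon's ratio, 95% level). For genes the ratio was taken on log2(CPM + 0.1), and the CPM are printed, while sums, scores and the component were taken as they are. Of 264 values tested 40 passed (15.2%), where chance gives about 1 in 20, and many of the genes were named because their spread was large. Of the 40, 29 were in ischemic kidneys and 13 of these in kidney 8. Of the gene values, 37 of 209 passed on log2, 25 on CPM and 9 on both, where the CPM scale was chosen after seeing the data. No explanation was tested.

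Ischemic kidney 1 stood apart for summed histone genes at 3270.3 CPM (highest, others 709 to 1848 CPM), G6pc at 0.603 CPM (lowest, others 6.39 to 29.9 CPM), Tmem87b at 2.06 CPM (lowest, others 9.28 to 18.6 CPM) and Agphd1 at 2.38 CPM (lowest, others 8.73 to 17.3 CPM). Ischemic kidney 2 stood apart for Nt5dc3 at 0.728 CPM (lowest, others 7.92 to 23.8 CPM) and Scai at 1.07 CPM (lowest, others 9.87 to 26.3 CPM). Ischemic kidney 4 stood apart for Cyp20a1 at 0.301 CPM (lowest, others 2.78 to 15.6 CPM). Ischemic kidney 5 stood apart for Pde1b at 1.08 CPM (lowest, others 6.33 to 23.4 CPM). Ischemic kidney 6 stood apart for Med16 at 1.58 CPM (lowest, others 6.37 to 21.6 CPM), Tprgl at 1.46 CPM (lowest, others 7.41 to 18.6 CPM), Epb4.1l4a at 1.52 CPM (lowest, others 7.8 to 17 CPM) and Zbtb7b at 18.2 CPM (lowest, others 52.7 to 109 CPM). Ischemic kidney 7 stood apart for Zfp36 at 6.48 CPM (lowest, others 16.9 to 34.3 CPM), Gemin5 at 0.822 CPM (lowest, others 9.54 to 20.6 CPM), Lrch1 at 1.84 CPM (lowest, others 7.72 to 25.7 CPM) and Egf at 0 CPM (lowest, others 0.889 to 6.76 CPM). Ischemic kidney 8 stood apart for the first principal component at 46.8 (highest, others -16.6 to 7.29), the collecting duct score at 0.91 (highest, others -0.49 to 0.08), Ccbl1 at 0 CPM (lowest, others 5.05 to 24.8 CPM) and Fam124a at 0 CPM (lowest, others 9.67 to 21.2 CPM). The same kidney stood apart for Svep1 at 0 CPM (lowest, others 7.11 to 24.9 CPM), Cda at 0.0635 CPM (lowest, others 8.22 to 26.9 CPM), Cckar at 0.0635 CPM (lowest, others 5.96 to 20.6 CPM) and Ppp1r7 at 0.0635 CPM (lowest, others 6.41 to 17 CPM). The same kidney stood apart for Dis3l at 0.317 CPM (lowest, others 8.86 to 17.8 CPM), Gnpat at 0.381 CPM (lowest, others 6.57 to 21.1 CPM), Wfdc2 at 36 CPM (highest, others 3.57 to 9.58 CPM) and Fzd1 at 12.3 CPM (lowest, others 38.5 to 92.1 CPM). The same kidney stood apart for Bcl10 at 11.6 CPM (lowest, others 49 to 74.3 CPM).

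Control kidney 1 stood apart for Acsm3 at 281 CPM (lowest, others 509 to 521 CPM), Gldc at 76.3 CPM (highest, others 42.4 to 46.8 CPM), Angptl7 at 0 CPM (lowest, others 4.1 to 7.25 CPM) and Tmem87b at 0.672 CPM (lowest, others 15.1 to 17.3 CPM). Control kidney 2 stood apart for Pde1b at 1.12 CPM (lowest, others 3.27 to 3.74 CPM) and Bgn at 152 CPM (highest, others 112 to 114 CPM). Control kidney 3 stood apart for Atp1b2 at 29.9 CPM (highest, others 17 to 17.1 CPM), Rpl9 at 1028 CPM (highest, others 883 to 905 CPM) and Hist1h4d at 30.6 CPM (lowest, others 129.7 to 172 CPM). Control kidney 4 stood apart for Sprr1a at 1.52 CPM (highest, others 0 CPM) and Fga at 3.27 CPM (lowest, others 8.44 to 9.88 CPM).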

How the results depend on the processing

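The count of genes called between ischemia and control stayed within 1.5 times its value under every alternative, from 1371 to 1821 higher and 1537 to 1714 lower, and from 1248 to 1531 and 1370 to 1676 when 1 kidney was left out. With the title number as a replicate block the counts were 1371 and 1611. The numbers do not pair the kidneys, since deviations of same-numbered kidneys correlated between -0.13 and 0.18 (12 pairs, 1 of them over 0.1) and those of other pairs between -0.24 and 0.29. Of the named genes' fold changes, 570 of 608 kept their side of the threshold, 38 lost it and 0 changed sign, and the block lost the calls of C77080 and Ctnnb1.

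Of the 100 most variable genes, 5 were shared with the ranking at 50 or more CPM, 2 with the ranking of all genes passing filterByExpr, 41 with a ranking by interquartile range, and 50 to 90 with rankings that left out 1 ischemic kidney and redid filter, scaling and choice of genes, the fewest without kidney 8 (59 when the same 6216 genes and scaling were kept). Genes with an SD of 1 or more numbered 5 at 50 or more CPM, 4087 among all genes passing filterByExpr, and 77 to 139 with 1 kidney left out. Genes of smaller spread after ischemia numbered 7 with a prior count of 0.5, 47 with filterByExpr only, and 1 (without control 1) to 17 (without control 2) with 1 kidney left out, and genes of larger spread numbered 109 with filterByExpr only and 0 with any 1 kidney left out.

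With all members passing filterByExpr, r of injury with the tubule score was 0.15 and with the proximal score 0.076, and r of the tubule score with library size was 0.11, against -0.57 with members of 10 or more CPM and -0.77 to -0.32 with 1 kidney left out. The proximal score and injury stayed between -0.92 and -0.77 with 1 kidney left out. With median scores the tubule score and proliferation gave r of -0.32, and leaving out 1 kidney gave -0.12 (kidney 5) to 0.39 (kidney 4). The injury score and library size gave -0.36 (kidney 1) to 0.012 (kidney 6), and the proximal score and library size -0.0061 with RLE size factors and -0.26 (kidney 8) to 0.33 (kidney 3) with 1 kidney left out. The causes were not tested. Clustering gave 19 clusters, 384 genes in clusters and 114 genes in the largest with 400 genes, 17 clusters and 38 genes in the largest with Spearman correlation, 6 clusters at 50 or more CPM, and 7 to 11 clusters with 1 kidney left out. Alternatives on proximal and distal scores, genes of 50 or more CPM in clusters and histone genes were chosen after seeing the data. The 8 kidneys and their unequal depth limit every value, most at 10 to 20 CPM.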
